A study of Mus musculus with 6 samples.

Results

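The interferon response genes are the receptors that bind interferons, the STAT and IRF transcription factors that carry the signal, and the antiviral and immune effectors that the signal turns on. They were taken from the deposited table by name, as the protein-coding genes called Irf, Ifit, Ifitm, Ifi, Ifnar, Ifngr, Gbp, Oas, Stat or Mx with a number or letter, and Isg15, Isg20, Rsad2, Usp18, Bst2, Zbp1, Ddx58 and Ifih1. This gave 81 of the 49548 genes of the table, of which 79 are described. The rule read names and no measured value, but earlier results of these data were known when it was set. Of the 79, 8 had no count in any library (Ifi202b, Ifi209, Ifi214, Ifi44l, Oas1d, Oas1e, Oas1f and Oas1h), 71 could be tested, and 58 averaged 10 normalized counts or more over the 6 libraries, here called the well-counted genes.

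The samples were cancer-associated fibroblasts (CAFs) from colonic adenomas of Col6a1-Cre, Rosa26-mTmG mice of the C57/BL6 strain, male and female. The titles of all 6 samples carry the label WT. Every mouse had received azoxymethane at 8 to 10 weeks of age and then 3 cycles of 2.5% dextran sodium sulfate, each followed by 14 days of water (AOM/DSS, a model of cancer that follows colitis). Cells without CD45, EpCAM, CD31 and Ter119 were sorted into GFP+ cells, called Col6a1+ CAFs, and Tomato+ cells, called Col6a1- CAFs, and each subset gave 3 libraries from pools of tumors of 5 to 6 mice. In the mTmG reporter a cell turns green once Cre has acted in it or in a cell it descends from, so GFP marks a history of Col6a1-Cre activity and not Col6a1 expression at the time of sorting, and the GFP+ gate can hold fibroblasts as well as perivascular cells.

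Type I interferons signal through Ifnar1 and Ifnar2, and type II interferon (Ifng) through Ifngr1 and Ifngr2. The receptors activate JAK kinases, which phosphorylate STAT factors. Pairs of STAT factors bind GAS sites in DNA, while a complex that holds Stat2 and Irf9 binds interferon-stimulated response elements. The genes switched on in this way include guanylate-binding proteins (GBP), oligoadenylate synthetases (OAS), and the IFIT and IFITM proteins. In the colon, stromal and epithelial cells as well as leukocytes can respond to interferons.

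Libraries were made by 3′ mRNA sequencing, which reads 1 tag near the end of each transcript, so values are set side by side between libraries and not between genes. The unit throughout is the normalized count, a read count divided by the size factor of its library, and libraries are given in the order of their replicate numbers. The libraries held an estimated 2570000 to 4520000 reads in genes. Col6a1+ replicate 1 stood apart, with 14530 genes detected against 18770 to 20511 in the others, and 14 of the tested interferon response genes were at 0 there against 2 to 7 in the others. The pan-fibroblast markers summed to 48940 to 51474 normalized counts in Col6a1+ CAFs and 10050 to 17708 in Col6a1- CAFs. The mural markers, of pericytes and smooth muscle, summed to 51524 to 104100 and 1486 to 3924. The epithelial markers went the other way, at 6439 to 8814 and 28059 to 46627, although EpCAM+ cells had been gated out, and Epcam itself was at 1074, 884 and 615 against 3107, 4129 and 3730. In such bulk samples, fewer cells of a type and less RNA per cell cannot be told apart.

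The DNA before the start sites of these genes was looked at first. RefSeq promoter windows (GRCm38.p6), from 250 bases before the start site to 50 bases after it, were found for 64 of the 79 genes, in 77 windows. They were searched on both strands for GAAANNGAA, the core of the interferon-stimulated response element that IRF factors bind, and for TTCNNNGAA, the GAS site of STAT factors, where N is any base. The 2 patterns can overlap each other. The IRF core was in 35 of the 77 windows (45.5%), against 8.56% of all 32851 windows, and the GAS site was in 15 (19.5%), against 8.3% of all. By gene, at least 1 window held the IRF core in all 5 guanylate-binding proteins of the RefSeq table, 8 of 10 Ifi200 genes, 5 of 6 IFIT genes and 4 of 8 OAS genes. These matches are not all separate. Those of Ifit1 and Ifit1bl2 are the same bases on opposite strands. The stretches around the IRF cores are identical in Ifit3 and Ifit3b, and in Ifi208 and Ifi213. A match is a run of letters and no evidence that a factor binds there.

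Stretches around the matches of 7 genes follow, 5′ to 3′ on the strand of the gene and with the matches in capitals. They are some of the genes that differed between the subsets or whose libraries did not overlap, and were chosen after their values were seen. Of those not shown, the window of Ifi47 held neither match, while Irf1, Ifitm2, Ifi211 and Oas1g each held a match. A match that starts with GAAA or ends in TTTC is an IRF core, on the printed strand or the other, and one that starts with TTC and ends in GAA is a GAS site.

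In Ifi203 the IRF core began at position -35 from a start site, within chr1:173942494-173942552 on the minus strand. Another window of Ifi203 held no match.
Ifi203: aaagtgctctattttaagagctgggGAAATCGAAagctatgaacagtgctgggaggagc

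In Ifnar2 a GAS site began at -214, within chr16:91372544-91372602 on the plus strand, and Irf8 held a pair of them at -171 and -153, within chr8:120736162-120736238 on the plus strand. Another window of Irf8 held no match.
Ifnar2: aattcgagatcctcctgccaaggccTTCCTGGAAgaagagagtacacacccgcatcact
Irf8: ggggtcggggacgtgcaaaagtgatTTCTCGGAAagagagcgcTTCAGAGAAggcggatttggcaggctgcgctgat

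Gbp5 and Gbp7, both on the plus strand, carried both kinds of match. In Gbp5 the IRF core was at -164, within chr3:142496745-142496803, and GAS sites lay at -245 and -52. The second of these lay within chr3:142496857-142496915. In Gbp7 the GAS sites were at -106 and -87 and the IRF core at -52, within chr3:142530205-142530317.
Gbp5, IRF core: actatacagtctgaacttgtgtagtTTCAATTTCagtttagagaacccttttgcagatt
Gbp5, GAS site: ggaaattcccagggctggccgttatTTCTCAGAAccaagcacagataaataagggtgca
Gbp7: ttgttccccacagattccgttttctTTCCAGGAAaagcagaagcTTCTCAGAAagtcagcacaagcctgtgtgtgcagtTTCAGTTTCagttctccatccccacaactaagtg

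In Oas1a and Oas3, both on the minus strand, overlapping IRF cores began at -20 and -14, within chr5:120907506-120907570, and at -75 and -69, within chr5:120777695-120777759. Oas1a also held a GAS site at -98.
Oas1a: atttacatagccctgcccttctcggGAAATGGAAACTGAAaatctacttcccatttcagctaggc
Oas3: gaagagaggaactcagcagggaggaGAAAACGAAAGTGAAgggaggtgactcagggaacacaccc

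The comparison of Col6a1+ with Col6a1- CAFs asks which genes of the response differ between the subsets in these adenomas. It was tested with limma on log2(normalized count + 1), which understates the change of low genes, with Benjamini-Hochberg adjustment over all 26402 genes with a count and a threshold of 0.05. Of the 71 interferon response genes tested, 3 were higher in Col6a1+ CAFs (Ifi203, Irf8 and Ifnar2; 4.23%) and 0 were lower. Over all genes tested, 2.66% were higher and 1.96% lower. The median log2 fold change of the 71 genes was 0.48, with 41 above and 28 below 0, while over all genes it was -0.27, with 10512 above and 15288 below. Over the 58 well-counted genes it was 0.50, against -0.15 over the 13515 genes at that level. The median of the 71 fell to 0.19 without Col6a1+ replicate 2, to 0.30 without Col6a1+ replicate 3 and to 0.26 without Col6a1- replicate 3.

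Among the 58 well-counted genes, the 3 Col6a1+ libraries all lay above the 3 Col6a1- libraries in 10 (17.2%), against 14.2% of the 13515 genes at that level, and below them in 6 (10.3%), against 17.6%. Of all 71 tested, 13 (18.3%) were higher and 6 (8.45%) lower at an unadjusted p under 0.05 and a log2 fold change over 1 in size. Over all 26402 genes tested the shares were 6.09% and 8.61%.

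The labels do not state whether libraries with the same replicate number came from the same pools. The test was therefore also run with the replicate number as a block. With the block no gene of the 26402 passed, the smallest adjusted p being 0.0612, and all 3 calls were lost. With the block over the well-counted genes alone all 3 passed, and 7 interferon response genes (12.1%) were higher and 2 (3.45%) lower, against 7.26% and 6.44% of all genes at that level. Besides the 3 these were Gbp5, Ifi27, Ifi47 and Bst2, higher, and Ifi27l2b and Usp18, lower. The calls also rested on single libraries, since without Col6a1- replicate 1 none of the 79 genes passed and only 11 genes were higher and 1 lower over the whole table.

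**Figure D1:**
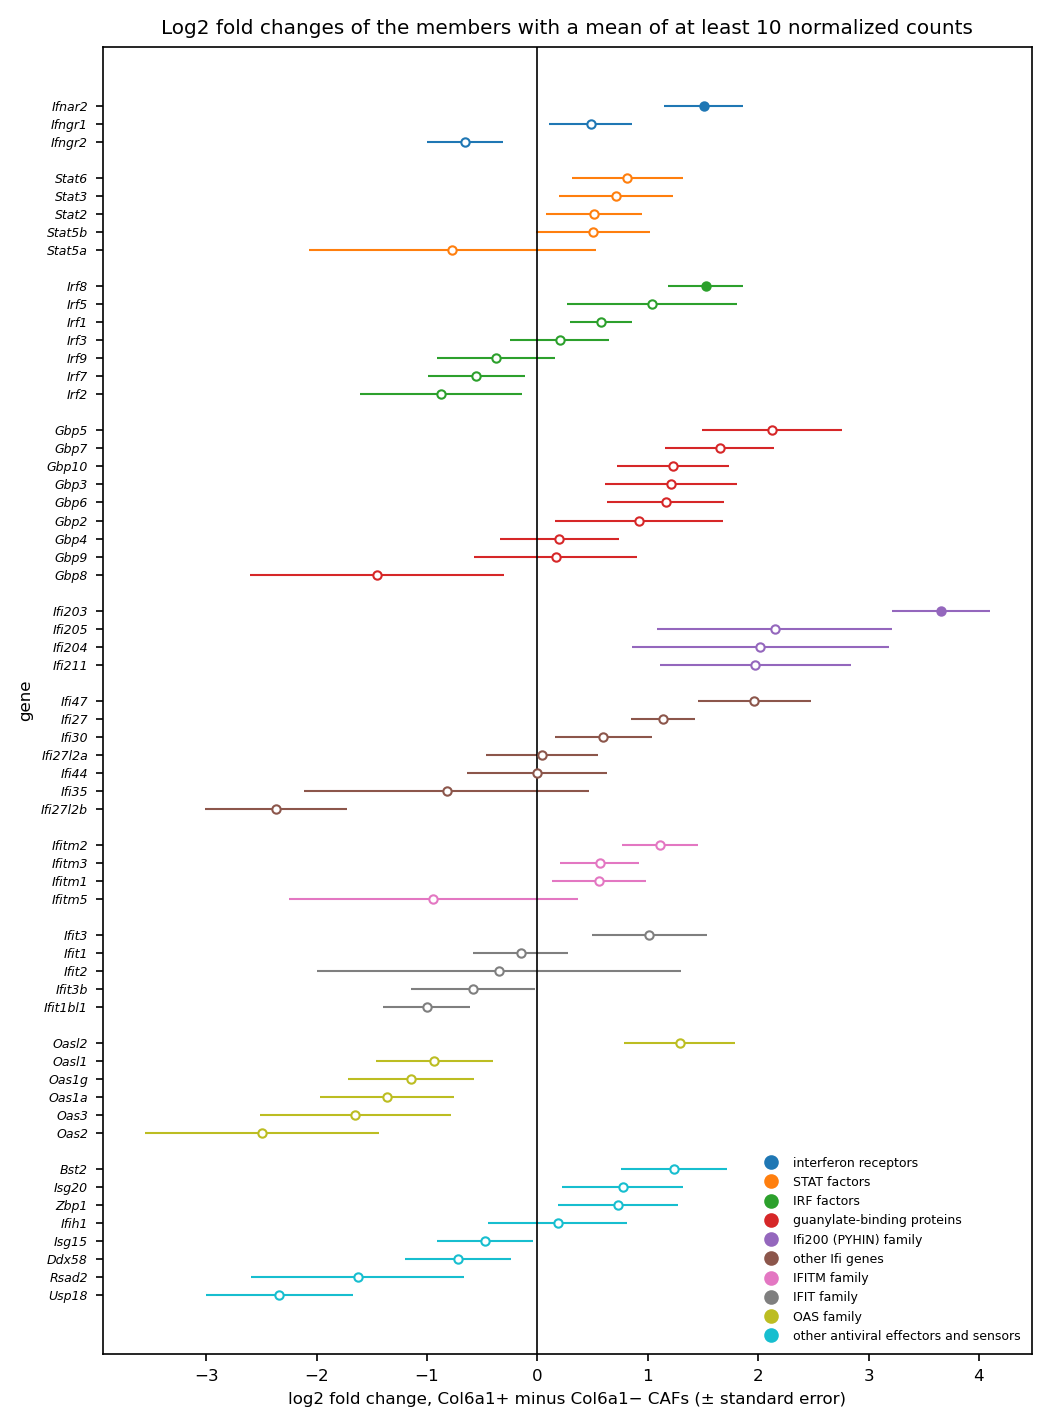
Log2 fold change of Col6a1+ over Col6a1- CAFs (x axis) for the 58 interferon response genes averaging 10 normalized counts or more, grouped by class, with bars for the standard error of limma. Filled points are the 3 genes at an adjusted p under 0.05. The guanylate-binding proteins and Ifi200 genes lie mostly to the right of 0, the OAS genes mostly to the left, and the IRF factors on both sides.

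Of the ligands almost nothing was counted. Of 21 interferon genes in the table (type I, II and III), 16 had no count in any library and the other 5 never exceeded 3 normalized counts in one. Ifng was at 0, 3 and 3 in Col6a1+ CAFs and at 1, 0 and 0 in Col6a1- CAFs, and Ifnb1 was counted only in Col6a1+ replicate 2, at 3. No difference in the ligands was detectable at this depth.

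Of the 4 receptor chains, Ifnar2 differed between the subsets. It is the chain of the type I receptor that binds interferon with high affinity. It stood at 267, 340 and 482 normalized counts in Col6a1+ CAFs and at 163, 119 and 97 in Col6a1- CAFs, with no overlap. The log2 fold change was 1.51 (SE 0.35, adjusted p = 0.0384 by limma), and the adjusted p with the block was 0.156. Of the 6 fits that leave out 1 library, the call held only without Col6a1+ replicate 1 (adjusted p = 0.0492), and ranged up to 0.185 in the others. It was also lost with a pseudocount of 0.1 (0.0546). Ifnar1, the other chain of the same receptor, was barely counted, at 0, 14 and 3 against 9, 9 and 14.

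The chains of the type II receptor did not pass the test. Ifngr1, which binds Ifng, was at 786, 1146 and 550 in Col6a1+ CAFs and at 414, 894 and 487 in Col6a1- CAFs, so that the groups overlapped (log2 fold change 0.49, SE 0.38, adjusted p = 0.603). Ifngr2, the accessory chain, was at 274, 164 and 136 against 277, 327 and 264, with 1 Col6a1+ library inside the range of the others (log2 fold change -0.65, SE 0.35, adjusted p = 0.404).

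None of the 6 STAT factors described passed the test with limma, nor did any at an unadjusted p under 0.05 and a log2 fold change over 1 in size. Stat2, a factor of the type I pathway, was at 101, 61 and 100 against 64, 74 and 44 (log2 fold change 0.51, adjusted p = 0.603), and its groups overlapped. Stat3 and Stat6, which serve other cytokine receptors, had log2 fold changes of 0.71 (216, 750 and 551 against 161, 250 and 501) and 0.82 (78, 185 and 201 against 46, 90 and 126). Both overlapped as well. Stat5b stood at 73, 34 and 48 against 27, 43 and 35, and its near copy Stat5a at 0, 34 and 28 against 26, 16 and 10, where the 0 was in the library with the fewest genes. Stat4, a factor of lymphocytes, had at most 3 normalized counts in a library. Over the 6 the median log2 fold change was 0.52, with 5 above 0, and it ranged from 0.34 to 1.01 over the alternative settings.

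Among the 8 IRF factors described 1 was higher. Irf8, a factor needed for the development of several myeloid cells and also inducible by Ifng, was at 229, 345 and 252 in Col6a1+ CAFs and at 87, 116 and 81 in Col6a1- CAFs. The groups were well apart, with a log2 fold change of 1.53 (SE 0.34, adjusted p = 0.0311 by limma). The adjusted p with the block was 0.0782, and it passed without Col6a1+ replicate 1 (0.0436) but not without any other library (0.0912 to 0.153). Irf8 lies inside the span of Gm20388 on the same strand, which shares none of its exon bases in GENCODE M21 and was at 1004, 823 and 619 against 595, 411 and 325.

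The immune markers were read beside Irf8. Summed over 17 entries of 16 marker genes they came to 156 to 316 normalized counts in Col6a1+ CAFs and 356 to 599 in Col6a1- CAFs. None passed the test with limma in either direction. At an unadjusted p under 0.05 and a log2 fold change over 1 in size, 5 of the 17 were lower and 0 higher. Over all genes tested 8.61% were lower and 6.09% higher at this criterion. Ptprc, which encodes the CD45 used in the sort, was at 0, 2 and 0 against 7, 8 and 3. The macrophage markers Adgre1 and Csf1r did not exceed 5 in any library, but other immune markers were counted. Cd14 was at 92, 77 and 225 against 120, 175 and 133, and Laptm5 at 31, 15 and 24 against 36, 159 and 229. Cd68 stood at 0, 3 and 7 against 14, 9 and 38. The part of leukocytes in the Irf8 values was not tested.

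The other 7 IRF factors described did not pass. Irf1, an early target of Ifng, was at 4614, 3174 and 3034 against 2688, 2440 and 2040, without overlap but with a small log2 fold change of 0.58 (SE 0.28, adjusted p = 0.354). Irf2, which can oppose Irf1, was at 15, 102 and 132 against 67, 131 and 148. The groups of Irf2 overlapped, and its lowest value was again in Col6a1+ replicate 1.

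Irf3 and Irf7 drive the transcription of interferon genes themselves. Irf3 was at 53, 87 and 97 against 44, 82 and 81, and Irf7 at 164, 70 and 192 against 141, 245 and 204, each with overlap. Irf9, which joins Stat2 in binding DNA, varied from 99 to 355 and 559 among the Col6a1+ libraries while the Col6a1- libraries stayed close together at 341, 359 and 353. Irf5, a factor of inflammatory cytokine genes, was at 68, 19 and 21 against 9, 28 and 11, and Irf4, a factor of lymphocytes, had 1 normalized count in 1 library of each subset. The log2 fold changes of these 6 other well-counted factors ran from -0.87 (Irf2) to 1.04 (Irf5).

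**Figure D2:**
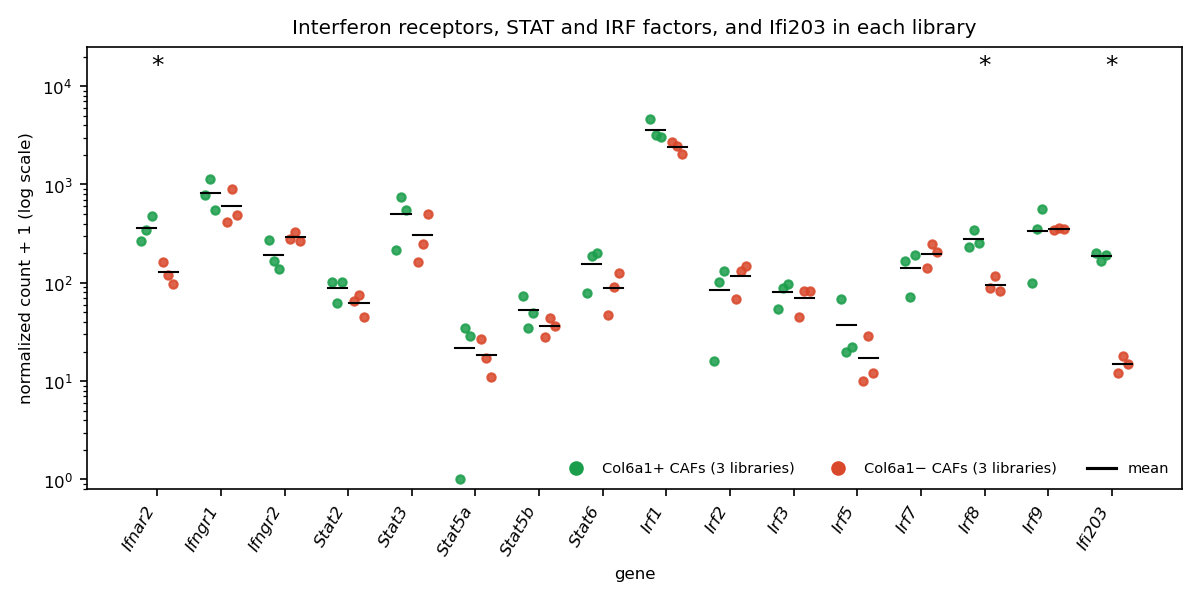
Normalized count + 1 (y axis, log scale) of the receptors, STAT factors and IRF factors that averaged 10 or more, and of Ifi203, in each of the 3 Col6a1+ (green) and 3 Col6a1- (red) libraries, with black lines for the group means. Asterisks mark the 3 genes at an adjusted p under 0.05. In these the groups do not touch, while most of the others overlap, and Irf1 is separated by a narrow gap only.

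Turning to the effectors, the largest difference was in the Ifi200 family (PYHIN proteins), which hold DNA-binding HIN domains and include sensors of foreign or damaged DNA. Ifi203 was at 202, 164 and 193 in Col6a1+ CAFs and at 11, 17 and 14 in Col6a1- CAFs, a mean of 186 ± 19.9 against 14 ± 3 (SD, n = 3 each). The log2 fold change was 3.66 (SE 0.44, adjusted p = 0.0019 by limma). The adjusted p with the block was 0.0612, and the call held without each of the other libraries but was just lost without Col6a1- replicate 1 (0.0503). The promoter window of Ifi203 shown above had an IRF core close to its start site, while another window of the gene had no match.

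Of 11 Ifi200 genes, 3 had no count and all 8 tested had a log2 fold change above 0, with a median of 2.00. It ranged from 1.65 to 2.66 over the alternative settings, leaving aside the minimum of 10 in every library, which kept Ifi203 alone. Ifi211 was at 10, 40 and 53 against 7, 9 and 4, without overlap (log2 fold change 1.98, SE 0.87, adjusted p = 0.295). Ifi205 was at 5, 34 and 40 against 1, 6 and 6, and Ifi204, a sensor of viral DNA, at 31, 14 and 4 against 0, 8 and 3, both with overlap. Among those averaging under 10, Ifi213 was named after its values were seen, with 32, 14 and 3 against 0, 2 and 0. Summed over the family, the counts were 303, 278 and 303 against 25, 45 and 28, and the groups were far apart.

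These genes lie side by side on chromosome 1 and are near copies of each other, so their counts are uncertain where reads could match several. The neighbour Mndal, of the same family but outside the naming rule, shares 37 of the 6706 exon bases of Ifi203. It was at 193, 188 and 186 against 0, 9 and 14 (log2 fold change 5.16, SE 0.91, adjusted p = 0.0111 by limma, 0.0965 with the block).

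The guanylate-binding proteins, interferon-induced GTPases that attack the vacuoles of intracellular microbes, also lay mostly above 0, in 9 of 10 genes, with a median of 1.04 (0.65 to 1.27 over the alternative settings). None passed the test at the adjusted threshold with limma. At an unadjusted p under 0.05 and a log2 fold change over 1, 3 of the 10 did, against 6.09% of all genes tested. Gbp5, which takes part in inflammasome activation, was at 512, 216 and 108 in Col6a1+ CAFs and at 59, 96 and 24 in Col6a1- CAFs. The groups did not overlap although the Col6a1+ libraries spread widely (log2 fold change 2.13, SE 0.63, adjusted p = 0.0942, 0.12 with the block). Gbp7 was at 71, 199 and 114 against 44, 43 and 26 (log2 fold change 1.65, SE 0.49, adjusted p = 0.0973).

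At the other end of the family was Gbp8, at 0, 14 and 8 against 20, 10 and 11 (log2 fold change -1.45, SE 1.15), again with a 0 in Col6a1+ replicate 1. Gbp10, Gbp3, Gbp6 and Gbp2 had log2 fold changes between 0.92 and 1.23, and Gbp4 and Gbp9 of 0.20 and 0.17. All of these overlapped between the groups. The family summed to 1278, 1065 and 726 against 600, 498 and 232. Gbp4, Gbp8 and Gbp9 share exon bases with each other, and Gbp6 and Gbp10 share 1726 and 1792 with Gm43302, so reads could be split among them.

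The oligoadenylate synthetase family, whose active members make the oligoadenylates that activate RNase L, lay the other way. Of 7 tested, 6 had a log2 fold change below 0, with a median of -1.36 (-1.67 to -0.95 over the alternative settings). None passed the test with limma, and at an unadjusted p under 0.05 and a log2 fold change over 1 in size 3 were lower and 1 higher. Over all genes tested 8.61% were lower and 6.09% higher at this criterion. Oas1a was at 15, 25 and 11 in Col6a1+ CAFs and at 36, 61 and 36 in Col6a1- CAFs (log2 fold change -1.36, SE 0.61, adjusted p = 0.307), and Oas1g at 17, 35 and 27 against 47, 101 and 39. Oas3 was at 2, 10 and 16 against 23, 29 and 23, and Oas2 at 0, 7 and 5 against 17, 33 and 13. In these 4 genes, of 6 well-counted ones, the groups did not overlap. Over all genes at that level 17.6% were lower without overlap.

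Oas1c, also averaging under 10 and named after its values were seen, had no count in Col6a1+ CAFs and 3, 8 and 4 in Col6a1- CAFs. Against a floor of 3 counts in each library it was at least 1.67-fold lower. Its adjusted p was 0.089 with limma and 0.0235 with limma-voom. The exception was Oasl2, at 208, 114 and 409 against 87, 131 and 57, with overlap (log2 fold change 1.29, SE 0.50, adjusted p = 0.22). The summed counts of the family, Oasl2 included, overlapped between the groups, at 278, 214 and 520 against 255, 466 and 244. Col6a1+ replicate 1 held the lowest value of Oas1g, Oas2 and Oas3, and the median without it was -0.95. The epithelial markers were also higher in Col6a1- CAFs, with 10 of 14 called lower in Col6a1+ CAFs and a median log2 fold change of -2.15, and their part in the OAS values was not tested.

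**Figure D3:**
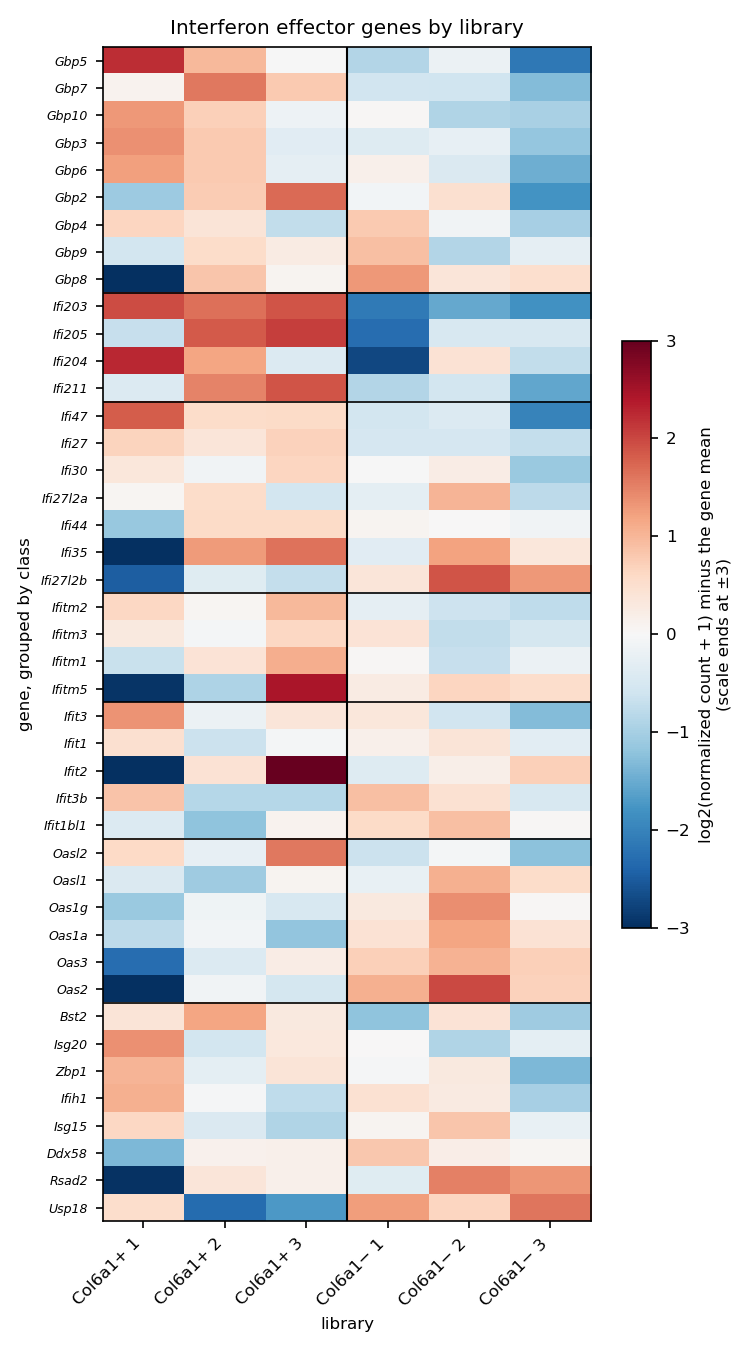
Effector genes averaging 10 normalized counts or more (rows, grouped by class) in the 6 libraries (columns), coloured by log2(normalized count + 1) minus the mean of the gene over the libraries, with the colour scale ending at 3 in either direction. Ifi203, Ifi47 and Ifi27 are red in all Col6a1+ libraries and blue in all Col6a1- libraries, the OAS genes Oas1a and Oas2 show the reverse, and the darkest blue cells in Col6a1+ replicate 1 are genes at or near 0 there.

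Of the other Ifi genes, 4 lay above and 3 below 0 and none passed the test with limma. At an unadjusted p under 0.05 and a log2 fold change over 1 in size, 2 were higher and 1 lower. Over all genes tested 6.09% were higher and 8.61% lower at this criterion. Ifi47, an immunity-related GTPase, was at 563, 233 and 238 against 108, 120 and 39, without overlap (log2 fold change 1.97, SE 0.51, adjusted p = 0.0574, 0.12 with the block). Ifi27 was at 432, 351 and 438 against 193, 193 and 165, a small spread within each group (log2 fold change 1.14, SE 0.29, adjusted p = 0.0523, 0.115 with the block). Its relative Ifi27l2b went the other way, at 9, 42 and 33 against 71, 204 and 135 (log2 fold change -2.37, SE 0.64, adjusted p = 0.0674, 0.0776 with the block). The third gene of that cluster on chromosome 12, Ifi27l2a, was at 125, 177 and 81 against 98, 242 and 69. Its log2 fold change was 0.04 (SE 0.51), with the groups wholly mixed.

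No gene of the IFITM proteins, which hinder the entry of viruses into the cell, passed the test with limma. At an unadjusted p under 0.05 and a log2 fold change over 1, 1 of 6 was higher, against 6.09% of all genes tested. Ifitm2 was at 359, 242 and 459 against 191, 150 and 137, without overlap (log2 fold change 1.11, SE 0.34, adjusted p = 0.106). Ifitm3 was at 5281, 4156 and 6677 against 5796, 2597 and 3013, with overlap. At the low end Ifitm5 was at 0, 3 and 41 against 8, 11 and 10, a spread within Col6a1+ CAFs wider than any difference between the groups. The median of the 6 genes was 0.28 and changed sign between alternative settings (-0.01 to 0.56).

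In the IFIT family, whose proteins bind viral RNA, no gene passed the test with limma and none was free of overlap. At an unadjusted p under 0.05 and a log2 fold change over 1 in size, 1 of 6 was lower, against 8.61% of all genes tested. Ifit3 was at 304, 105 and 154 against 152, 80 and 48 (log2 fold change 1.01, SE 0.52, adjusted p = 0.381), and Ifit1bl1 at 180, 103 and 254 against 353, 443 and 245 (log2 fold change -1.0, SE 0.40, adjusted p = 0.229). Ifit2 ran from 0 in Col6a1+ replicate 1 to 36 and 383 in the other Col6a1+ libraries, against 20, 30 and 44. The family median was -0.47, with 1 of 6 above 0. Ifit3 and Ifit3b, and the Ifit1 relatives, are near copies, and their counts are uncertain for the same reason as those of the Ifi200 genes.

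Among the 9 other antiviral effectors and sensors, 4 lay above and 5 below 0. Usp18 removes Isg15 from proteins and restrains signalling at Ifnar2. It was at 143, 19 and 29 in Col6a1+ CAFs and at 234, 155 and 302 in Col6a1- CAFs, without overlap and with the highest Col6a1+ value close to the lowest of the others. The log2 fold change was -2.34 (SE 0.66, adjusted p = 0.0799, 0.166 with the block), and without Col6a1+ replicate 1 the gene passed (-3.19, adjusted p = 0.0219).

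Bst2, which tethers budding viruses to the cell, was at 205, 360 and 192 against 67, 210 and 75 (log2 fold change 1.24, SE 0.48, adjusted p = 0.214), and overlapped. Isg15, the ubiquitin-like protein that Usp18 removes, was at 406, 197 and 142 against 281, 476 and 228 (log2 fold change -0.47, SE 0.44), also with overlap. The RNA sensors Ddx58 (RIG-I) and Ifih1 (MDA5) had log2 fold changes of -0.72 and 0.19. Mx1 had at most 9 normalized counts in a library, and Rsad2 ran from 2 to 29 in Col6a1+ CAFs and from 17 to 65 in Col6a1- CAFs.

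Genes of the pathway outside the naming rule were read from a list of 98, the 21 ligands included, of which 80 could be tested. With limma 5 were higher in Col6a1+ CAFs (Cxcl9, Iigp1, Phf11d, Slfn5 and Socs3; 6.25%) and 0 lower, against 2.66% and 1.96% of all genes. At an unadjusted p under 0.05 and a log2 fold change over 1 in size, 12 (15%) were higher and 1 (1.25%) lower, against 6.09% and 8.61%. Their median log2 fold change was 0.02. With the block none of the 5 passed (adjusted p from 0.0612 to 0.142), and with the block over the well-counted genes all 5 did.

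Socs3, a feedback inhibitor of JAK kinases, was at 1657, 1397 and 1151 against 748, 460 and 350 (log2 fold change 1.49, SE 0.33, adjusted p = 0.0303). Iigp1, a GTPase of the same kind as Ifi47, was at 993, 1298 and 755 against 225, 230 and 99 (2.52, SE 0.39, adjusted p = 0.00558). Cxcl9, a chemokine for T cells induced by Ifng, was at 605, 679 and 370 against 137, 130 and 53 (2.43, SE 0.43, adjusted p = 0.0108). In all 3 the groups were apart by a wide margin. Phf11d was at 249, 75 and 230 against 30, 14 and 14 (log2 fold change 3.10, SE 0.58, adjusted p = 0.0139), and Slfn5 at 622, 381 and 419 against 142, 235 and 137 (1.47, SE 0.34, adjusted p = 0.037). These 2 did not overlap either.

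Of the 3 other groups of that list, the kinases and regulators had 1 gene of 10 called (Socs3), the nucleic acid sensors 0 of 10 tested (1 higher at an unadjusted p under 0.05 and a log2 fold change over 1), and the other interferon-induced genes 4 of 55. Their median log2 fold changes were 0.28, -0.16 and 0.04. Over all genes tested 2.66% were called higher, and 6.09% were higher at the unadjusted criterion.

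**Figure D4:**
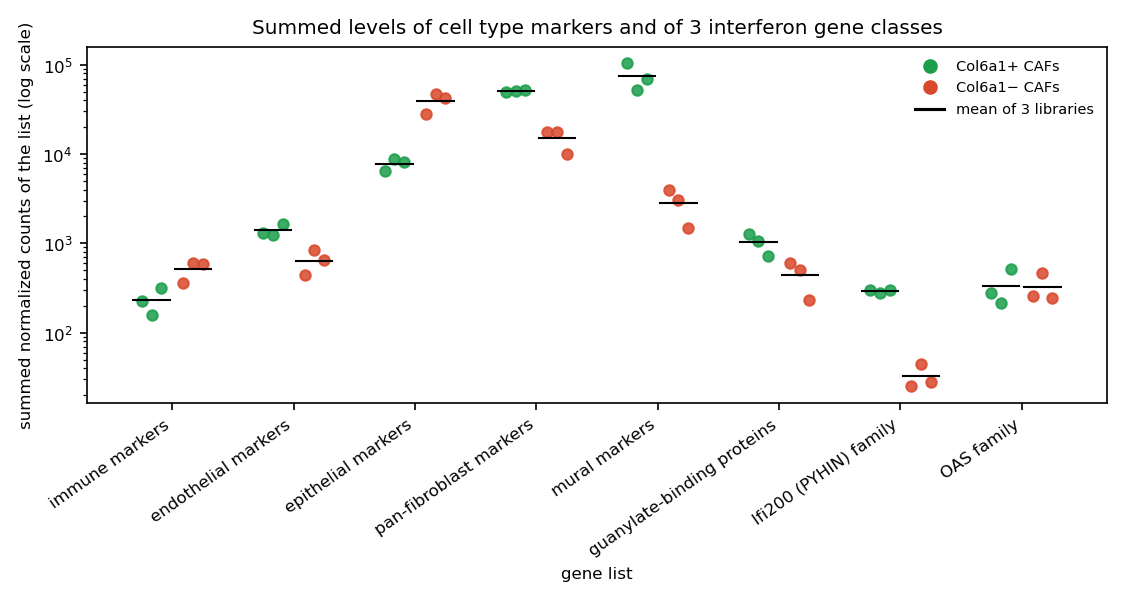
Summed normalized counts (y axis, log scale) of 5 lists of cell type markers and of 3 classes of interferon response genes in each Col6a1+ (green) and Col6a1- (red) library, with black lines for the means. The sums of the epithelial and immune markers are lower in Col6a1+ CAFs, those of the pan-fibroblast and mural markers and of the guanylate-binding and Ifi200 genes are higher, those of the OAS genes overlap, and that of the endothelial markers is higher although 8 of its 10 genes lie below 0 in log2 fold change.

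The endothelial markers summed to 1242 to 1651 in Col6a1+ CAFs and 437 to 841 in Col6a1- CAFs, of which Esam alone, an adhesion molecule of cell junctions, gave 943 to 1125 against 38 to 93. Only Esam and Tie1 lay above 0 in log2 fold change, and both passed the test. The other 8 of the 10 lay below 0, and the median was -1.13. Pecam1, the CD31 used in the sort, was at 0, 21 and 27 against 13, 64 and 44. The mural and pan-fibroblast markers moved in the same direction as Ifi203, Irf8, Ifnar2 and the guanylate-binding proteins, with 10 of 10 and 7 of 10 called higher. The part of the mixture of cell types in these differences was not tested.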

How the data were processed

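Colonic adenoma cells were sorted and sequenced as 3′ mRNA libraries (QuantSeq, Ion Proton), 3 of Col6a1+ and 3 of Col6a1- CAFs. The authors aligned reads to mm10 with TopHat2 and Bowtie2, counted them per gene and ran DESeq through the metaseqr package. They deposited log2 values of normalized counts plus 1. Whether counting used the strand is not given in the sources used here. The table also holds columns of the authors' own comparison (p-values, false discovery rates and fold changes), which were not used, and 6 columns of other per-sample values, also not used. Cells from homeostasis were not analysed here. All values were whole after the log was undone, within a tolerance of 1e-6, and reads per library were estimated from the spacing of low values.

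The 26402 genes whose counts over the libraries summed to 1 or more were fitted with limma 3.58.1 (lmFit, eBayes with a trend, 6.48 prior degrees of freedom) in R 4.3.3, without a covariate, with Benjamini-Hochberg adjustment, and tested on simulated data. SE is the moderated standard error of limma. The labels do not say whether same-numbered libraries came from the same pools. Their deviations from the group means correlated at 0.245, 0.125 and 0.144 over 13515 genes, against -0.245 to 0.15 for different numbers. These ranges overlap and do not settle the pairing, so blocked values stand beside the calls. Alternatives were library-size scaling, a minimum of 10 in the mean or in every library, limma-voom, the block, a pseudocount of 0.1, each library left out and an unadjusted threshold. The 3 samples of a subset are pools of different mice, and p-values measure the spread between pools.

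Members and lists were chosen with earlier results of these data known. Named are all receptors, STAT and IRF factors, genes past the threshold, genes with a mean of at least 10 whose libraries do not overlap, and the extremes of each class, with a few relatives added after their values were seen. A pair of genes that the naming rule also finds is not reported here, and all counts over the interferon response genes leave it out. Overlaps of exons come from GENCODE M21.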

Additional observations from a re-analysis of the deposited data

How the results depend on the processing

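The number of interferon response genes called higher was 3. It was 6 over genes that reached 10 in every library and 5 over genes with a mean of at least 10 and with limma-voom. It was 2 with a pseudocount of 0.1, 7 with the replicate block over genes with that mean and 0 with that block over all genes. At an unadjusted p under 0.05 with a log2 fold change over 1 it was 13. Over all genes, 696 of 9473 were higher at 10 in every library and 815 of 13515 at that mean. With limma-voom 804 of 26402 were higher, and with the pseudocount 561. Shares over all genes for the block at that mean and the unadjusted threshold are given above. Without 1 library each it was 0 to 3, with 0 without Col6a1- replicate 1, 3 without Col6a1+ replicate 1 and 1 without any other. Over all genes it was 11 without Col6a1- replicate 1, 453 without Col6a1+ replicate 1 and 102 to 292 without any other. The number called lower was 0. It was 1 with library size alone and with at least 10 in every library, and 3 with limma-voom. It was 2 with the replicate block over genes with a mean of at least 10 and 6 at the unadjusted threshold. Without 1 library each it was 0 to 1, with 1 (Usp18) without Col6a1+ replicate 1. Over all genes, 628 of 26402 were lower with library size alone, 458 of 9473 at 10 in every library and 1006 of 26402 with limma-voom. Without Col6a1+ replicate 1, 442 of 26150 were lower.

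For the other pathway genes, 5 were higher, and 10 with at least 10 in every library, 8 with a mean of at least 10, 10 with the replicate block at that mean, 0 with the replicate block, 12 at the unadjusted threshold and 0 to 2 without 1 library each. Lower were 0, and 1 with the replicate block at that mean and at the unadjusted threshold. The counts and shares over all genes given above apply to these settings as well. Adding a block leaves fewer degrees of freedom and a mean filter fewer genes, and beyond that the cause was not tested. The median log2 fold change of the interferon response genes ran from 0.19, without Col6a1+ replicate 2, to 0.56. The 16 genes followed singly were those called or without overlap, a choice that fixes their sign when a library is left out. Others changed sign, such as Ifit2 (-2.34 to 1.95) and Ifi35 (-1.85 to 1.04). With 3 libraries a group and 2570000 to 4520000 reads, values of genes under about 10 normalized counts are imprecise.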
